A study of Homo sapiens with 6 samples.

Results

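Cohesin and its regulators were described through 10 genes, chosen by symbol among the 58825 gene identifiers of the table. These were the ring genes SMC1A, SMC3, RAD21, STAG1 and STAG2, and the regulator genes ESCO2, CDCA5, WAPL, PDS5A and PDS5B. All 10 passed the filter on low counts and were among the 16208 genes tested. SKOV3, an established human ovarian cancer cell line, was transfected with a negative control siRNA (NC, 3 libraries) or with an siRNA against EIF5A2 (si-EIF5A2, 3 libraries), and total RNA was taken after 48 h for mRNA sequencing. The comparison asked which mRNAs changed when EIF5A2, a translation factor gene, was knocked down. Both groups were the same untreated line apart from the transient transfection, and 1 control and 1 EIF5A2 treatment in 1 cell line limit the model. The labels do not say whether the 3 libraries of a group came from separate cultures, so the p-values measure the spread between these libraries, which may be technical.

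Cohesin is a ring-shaped protein complex that holds sister chromatids together from DNA replication until anaphase and folds interphase chromatin into loops. SMC1A and SMC3 form the long arms of the ring, RAD21 closes it, and either STAG1 or STAG2 binds RAD21. In S phase ESCO2 acetylates SMC3, which lets sororin (the product of CDCA5) bind and counter WAPL, the factor that opens the ring with the help of PDS5A or PDS5B.

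Library totals ran from 46900204 to 74142267 estimated counts. Low values piled up at multiples of about 3.73 counts, so a sequenced fragment was worth several counts. Across the genes tested, log2 CPM (CPM, counts per 1000000 counts of the library after TMM scaling) correlated with r of 0.964 to 0.974 within a group and 0.929 to 0.938 between groups. EIF5A2 had 27.8, 29.8 and 29.9 CPM in the NC libraries and 2.76, 4.04 and 4.27 CPM in the si-EIF5A2 libraries, a mean of 12.7% of NC. Of 7 epithelial ovarian cancer markers all were detected, with KRT19 at 3.22 ± 0.571 and EPCAM at 1.55 ± 0.0962 CPM in NC (SD, n = 3) as the lowest. Their sum was 1506 to 1673 CPM in NC and 956 to 1168 CPM in si-EIF5A2 libraries. Of the 7 markers 3 were called lower (limits given below), beside 13.6% of all genes tested. The 3 were KRT7 (log2 fold change -0.87), PAX8 (-0.80) and KRT8 (-0.69). The 11 markers of leukocytes, fibroblasts and endothelial cells summed to 42.9 to 59.7 CPM in NC and 29.1 to 57.9 CPM in si-EIF5A2 libraries, most of it CD68, and PTPRC and CD3E were at 0 counts in all libraries. The 43 S phase marker genes of the Seurat software summed to 1430 to 1593 CPM in NC and 705 to 718 CPM in si-EIF5A2 libraries, and the 54 G2/M marker genes to 5186 to 5513 CPM and 1757 to 1944 CPM. In RNA of whole cultures, fewer cycling cells and less RNA per cell cannot be told apart, and the part of these marker changes in the results was not tested.

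After knockdown of EIF5A2, RAD21 and the S phase regulators ESCO2 and CDCA5 fell, and the other 7 cohesin genes were not called. CDCA5 dropped to 5.75% of its NC level, ESCO2 to 18.2% and RAD21 to 43.5% (n = 3 libraries each). Those 7 genes lay between 70.7% (STAG1) and 104% (PDS5B) of NC. A gene was called where edgeR's quasi-likelihood fit gave an adjusted p (Benjamini-Hochberg) under 0.05 together with more than a 1.5-fold difference. This held for 3 of the 10 genes, all lower, and for 0 in the higher direction, beside 13.6% of all genes tested called lower and 11.1% called higher. For the higher direction, 0 members had an unadjusted p under 0.05, and DESeq2 also called 0. Without the limit on the fold change 5 of the 10 were lower, beside 18.9% of all genes lower and 18.0% higher. With an unadjusted p under 0.05 and a 2-fold limit, as in the methods of the study, 3 were lower, beside 9.24% lower and 5.38% higher. The CPM ranges of the groups did not overlap, with si-EIF5A2 lower, in 6 of the 10 genes, against 26.5% of all genes in that direction and 24.7% in the other. The median log2 fold change of the 10 genes was -0.28, and that of all genes tested was -0.01.

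**Figure D1:**
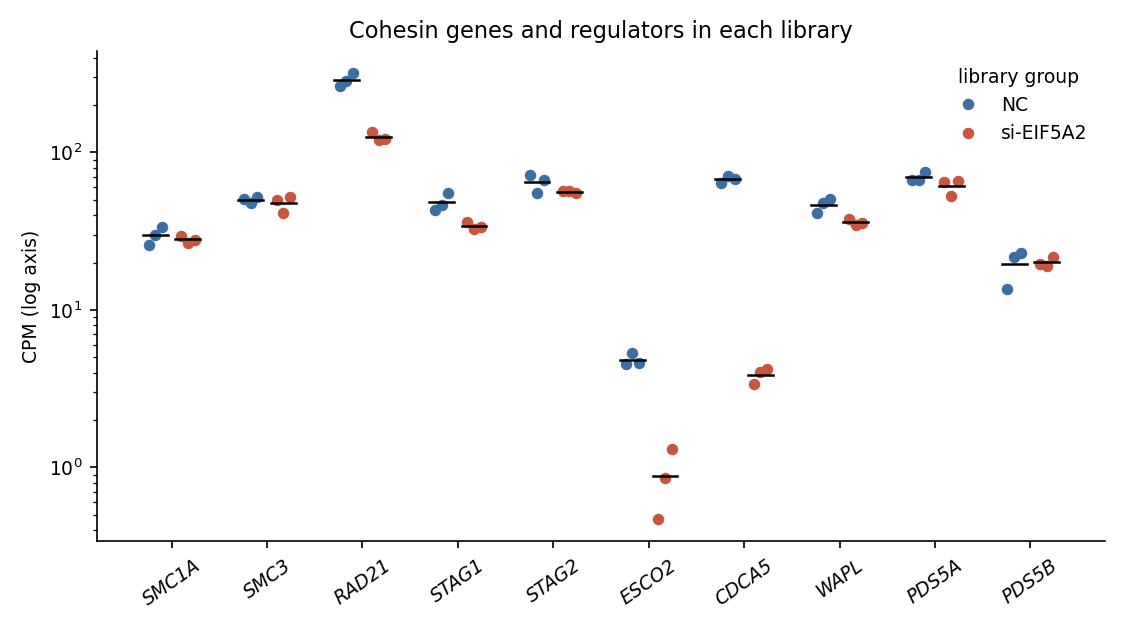
Each point is 1 library, with CPM on a log axis, NC in blue and si-EIF5A2 in red, and black bars mark group means (n = 3). CDCA5, ESCO2 and RAD21 separate widely between groups, whereas the points of SMC1A, SMC3, STAG2 and PDS5B overlap.

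Among the ring genes, RAD21 stood apart from the other 4. RAD21, which encodes the subunit that separase cuts at anaphase, lies on chromosome 8 from 116845935 to 116874866 on the minus strand (GRCh38, GENCODE release 29; all gene positions are from this annotation). It had 263, 285 and 319 CPM in NC replicates 1 to 3 and 134, 121 and 122 CPM in si-EIF5A2 replicates 1 to 3. The highest si-EIF5A2 library was far below the lowest NC library. The RAD21 log2 difference was -1.20 ± 0.09 (standard error), with an adjusted p of 4.72e-05 in edgeR. This 2.30-fold fall stayed between -1.27 and -1.13 on the log2 scale with each library left out. Exons of UTP23 on the opposite strand cover 8.37% of the RAD21 exons, and the strand setting of the counting is not given in the sources used here. UTP23 itself was not called, at a log2 difference of 0.41 (adjusted p = 0.0104, edgeR).

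SMC1A and SMC3, the ATPase arms of the ring, showed little difference between the groups. SMC3 (chromosome 10 from 110567691 to 110604636, plus strand) had 50.7, 48.1 and 51.8 CPM in NC and 49.6, 41.2 and 51.8 CPM in si-EIF5A2 libraries. The log2 difference was -0.08, with a 95% confidence interval from -0.32 to 0.16 (adjusted p = 0.607, edgeR). The sign turned to 0.01 without si-EIF5A2 replicate 2, the lowest of the 6 libraries. SMC1A (chromosome X from 53374149 to 53422728, minus strand) had 25.9, 30.1 and 33.7 CPM in NC and 29.6, 26.7 and 27.8 CPM in si-EIF5A2 libraries. The si-EIF5A2 values of SMC1A lay inside the NC range. Its log2 difference was -0.09 (95% confidence interval -0.36 to 0.18, adjusted p = 0.585, edgeR). For both genes the interval excludes a 1.5-fold change in either direction.

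The STAG subunits, alternative partners of RAD21 that give cohesin its 2 somatic forms, were neither called. STAG1 (chromosome 3 from 136336233 to 136752403, minus strand) had 43.2, 46.3 and 55.5 CPM in NC and 36.4, 32.8 and 33.4 CPM in si-EIF5A2 libraries. The groups did not overlap. The log2 difference of -0.50 ± 0.11 (standard error, adjusted p = 0.0100 in edgeR) passed the limit on the adjusted p but not on the fold change, so STAG1 was not called. PCCB, on the opposite strand, covers 21.2% of the STAG1 exons with its own. The mean PCCB level was 119 ± 1.37 CPM in NC against 80.2 ± 4.04 CPM after knockdown (SD, n = 3 each). PCCB, at a log2 difference of -0.57 (adjusted p = 5.50e-04, edgeR), also passed the limit on the adjusted p but not on the fold change. Whether reads of PCCB contribute to the STAG1 values was not tested. STAG2 (chromosome X from 123960212 to 124422664, plus strand) had 71.7, 55.4 and 66.5 CPM in NC and 57.0, 56.5 and 55.6 CPM in si-EIF5A2 libraries. NC replicate 2 lay below the 3 si-EIF5A2 libraries, so the groups overlapped. The STAG2 log2 fold change was -0.19, with a 95% confidence interval from -0.44 to 0.05 (adjusted p = 0.194, edgeR).

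CDCA5 showed the deepest fall of the 10 genes. It encodes sororin, which protects replicated cohesin from release, and lies on chromosome 11 from 65066300 to 65084164 on the minus strand. The 3 NC libraries held 64.1, 71.1 and 67.4 CPM, and the 3 si-EIF5A2 libraries 3.40, 4.02 and 4.23 CPM. The lowest NC library was far above the highest si-EIF5A2 library. CDCA5 fell by 4.12 ± 0.12 on the log2 scale (standard error, adjusted p = 4.18e-06 in edgeR), or 17.4-fold, which was the 62nd lowest value among the 16208 genes tested. It stayed between -4.19 and -4.04 with each library left out.

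ESCO2, the acetyltransferase of replicating cells, was the least abundant of the 10 genes in both groups. Its gene lies on chromosome 8 from 27771949 to 27812640 on the plus strand. It had 4.56, 5.36 and 4.57 CPM in NC and 0.469, 0.862 and 1.31 CPM in si-EIF5A2 libraries, so the groups did not overlap. The deposited counts were 333, 380 and 215 in NC against 24, 45 and 63 in si-EIF5A2 libraries, and divided by the step of 3.73 the latter correspond to only about 6, 12 and 17 fragments. ESCO2 fell by 2.46 ± 0.36 on the log2 scale (standard error, adjusted p = 0.00121 in edgeR), with a 95% confidence interval from -3.29 to -1.62. Without si-EIF5A2 replicate 1 it was -2.16, and without si-EIF5A2 replicate 3 it was -2.86. The size of the ESCO2 fall is thus less certain than that of CDCA5, although its call held in all 15 alternatives run.

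WAPL and the PDS5 genes were not called. WAPL (chromosome 10 from 86435256 to 86521815, minus strand) had 41.2, 47.9 and 50.5 CPM in NC and 37.9, 34.4 and 35.9 CPM in si-EIF5A2 libraries. The groups did not overlap, but the log2 difference of -0.37 ± 0.10 (standard error, adjusted p = 0.0240 in edgeR) was short of 1.5-fold, and the adjusted p ran from 0.0103 to 0.0778 across the alternatives. PDS5A (chromosome 4 from 39822863 to 39977956, minus strand) had 67.3, 67.3 and 75.3 CPM in NC and 65.0, 53.0 and 65.6 CPM in si-EIF5A2 libraries. All si-EIF5A2 values of PDS5A were below NC, by a margin smaller than the spread within either group. The log2 difference was -0.19 (95% confidence interval -0.44 to 0.05, adjusted p = 0.202, edgeR).

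PDS5B (chromosome 13 from 32586427 to 32778019, plus strand) had 13.5, 21.8 and 23.1 CPM in NC and 19.6, 19.1 and 21.8 CPM in si-EIF5A2 libraries. NC replicate 1 was well below the other 5 libraries. The log2 difference was 0.05, with a 95% confidence interval from -0.41 to 0.51 (adjusted p = 0.874, edgeR), and without NC replicate 1 the value was -0.16. No direction can be given for PDS5B.

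**Figure D2:**
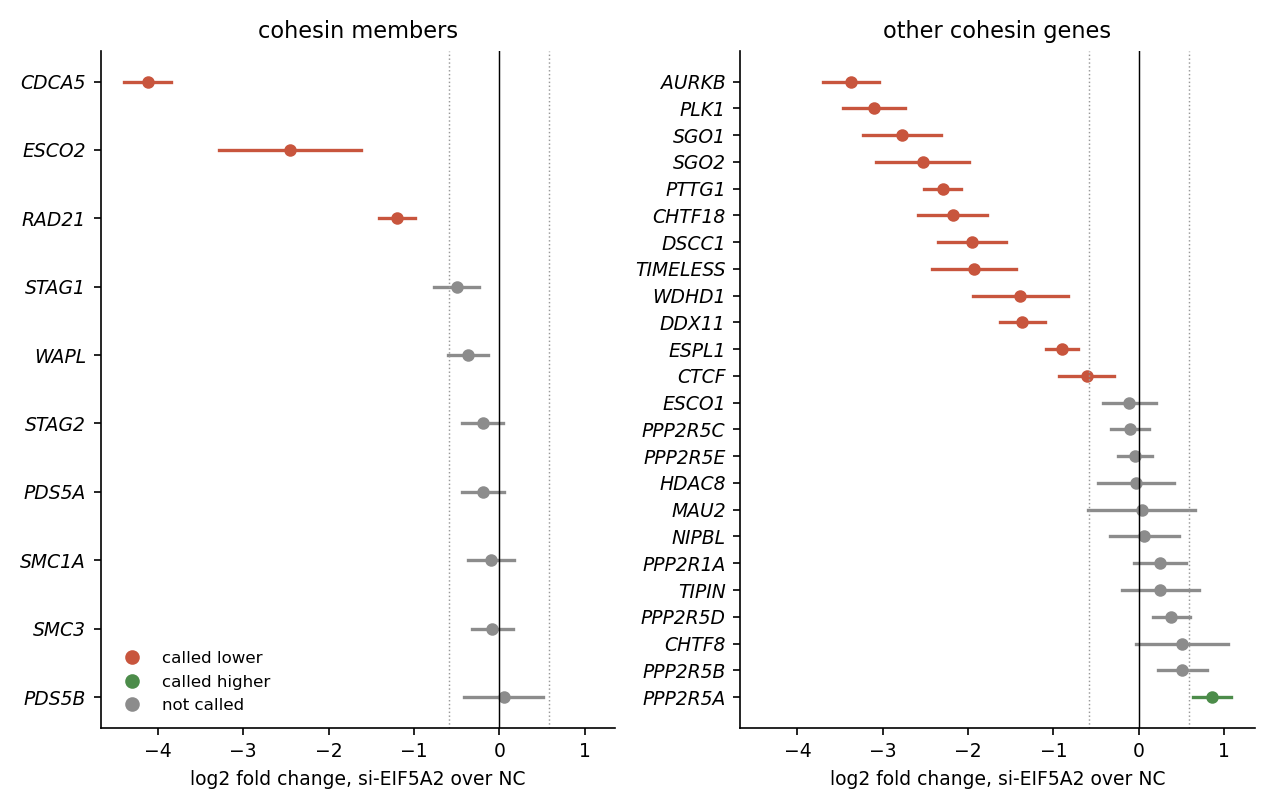
Points show the log2 fold change of si-EIF5A2 over NC and bars its 95% confidence interval for the 10 cohesin members (left) and 24 of the 25 other cohesin genes tested (right, REC8 left out for its wide interval). Dotted lines mark a 1.5-fold change, red is called lower, green called higher and gray not called.

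Levels of different genes were compared per kilobase of merged exons, scaled to a sum of 1000000 over all genes in each library. In NC the order ran from RAD21 at 129 ± 15.6 to ESCO2 at 1.68 ± 0.166 (SD, n = 3). CDCA5 was second at 47.6 ± 3.13 and SMC3 next at 32.5 ± 1.62, each clear of its neighbours in all 3 libraries. STAG2 (21.8 ± 2.66), WAPL (17.8 ± 2.24), STAG1 (17.1 ± 2.65) and PDS5A (15.9 ± 1.38) followed, and each neighbouring pair among these 4 overlapped. SMC1A (7.91 ± 1.22) and PDS5B (4.09 ± 1.17) came next without overlap. In si-EIF5A2 libraries RAD21 stayed first at 59.1 ± 4.94 and ESCO2 last at 0.321 ± 0.155 (SD, n = 3), whereas CDCA5 moved to place 9 at 2.87 ± 0.292. PDS5A, WAPL and STAG1 again overlapped as neighbours. Merged exons include those of rare transcripts, so levels of genes with long annotated exons, such as SMC1A with 10484 bases against 4275 in SMC3, are understated on this scale.

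**Figure D3:**
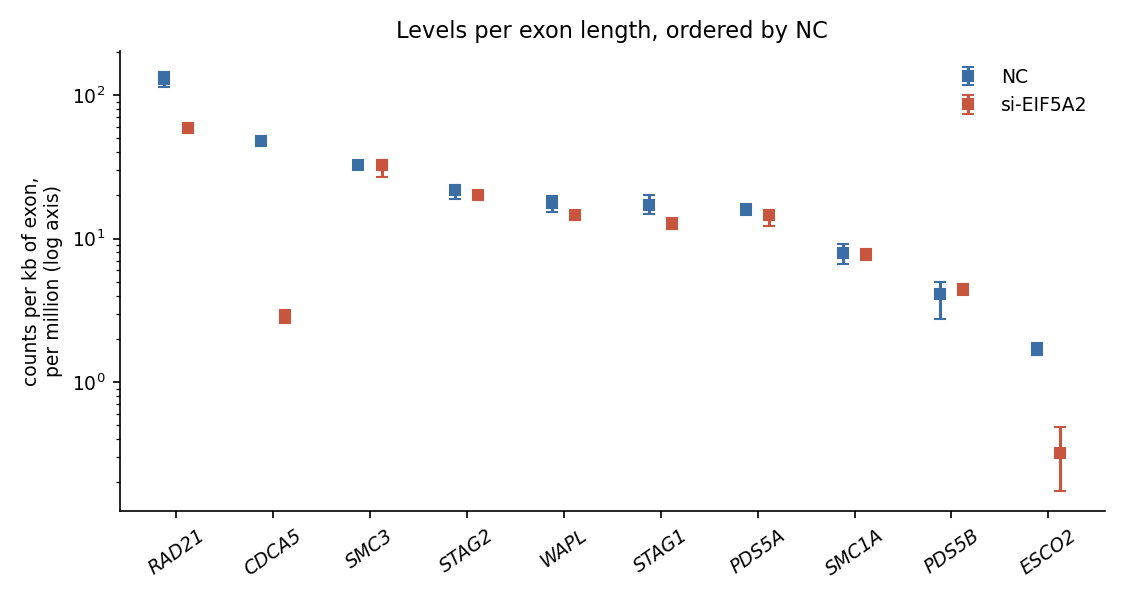
Squares are group means of counts per kilobase of merged exon, scaled to the same sum over all genes in each library (log axis), and bars run from the lowest to the highest of 3 libraries. RAD21 is highest in both groups, and CDCA5 moves from second place in NC to place 9 in si-EIF5A2.

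Ratios between genes within a library do not depend on how libraries are scaled, and 6 pairs were compared on the per-length scale. With 3 against 3 libraries the exact permutation test, 2-sided, cannot give a p under 0.10, so none could pass 0.05. RAD21 was 3.96 times SMC3 in NC and 1.83 times SMC3 in si-EIF5A2 libraries, a log2 difference of -1.11 (standard error 0.12, exact permutation p = 0.10, adjusted p = 0.20 over the 6 pairs). The 3 log2 ratios were 1.84, 2.03 and 2.09 in NC and 0.90, 1.02 and 0.71 in si-EIF5A2 libraries, without overlap.

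CDCA5 and WAPL, whose products act against each other on the ring, changed places. Their log2 ratio was 1.52, 1.45 and 1.30 in NC and -2.59, -2.21 and -2.20 in si-EIF5A2 libraries. CDCA5 mRNA thus stood at 2.68 times WAPL mRNA in NC and at 0.199 times in si-EIF5A2 libraries, a log2 difference of -3.75 (standard error 0.14, exact permutation p = 0.10, adjusted p = 0.20). ESCO2 against its paralog ESCO1 went from a log2 ratio of -1.30 ± 0.219 to -3.73 ± 0.612 (SD, n = 3 each), a difference of -2.43 with the same p-values.

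The remaining ratios overlapped between the groups. STAG2 over STAG1 was 0.67, 0.20 and 0.20 on the log2 scale in NC and 0.59, 0.72 and 0.67 in si-EIF5A2 libraries. NC replicate 1 was among the si-EIF5A2 values, and the log2 difference was 0.31 (standard error 0.16, exact permutation p = 0.20, adjusted p = 0.30), or 0.46 without that library. PDS5B over PDS5A differed by 0.28 (standard error 0.23, exact permutation p = 0.30, adjusted p = 0.36), and by 0.07 without NC replicate 1. SMC1A over SMC3 had means of -2.05 in both groups, a difference of -0.00068 with a standard error of 0.13 (exact permutation p = 1).

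A further 28 genes that load, modify, protect or cut cohesin were taken as a list, of which 25 were tested. Of these, 12 were called lower and 1 higher, and 12 were not called, with a median log2 fold change of -0.11. Of all genes tested, 13.6% were called lower and 11.1% higher. Loading showed no call, since NIPBL (25.7 ± 1.06 to 26.9 ± 6.81 CPM) and MAU2 (38.0 ± 9.94 to 38.9 ± 10.3 CPM, SD, n = 3 each), the 2 loader genes, had log2 fold changes of 0.07 and 0.03. The other enzymes of the acetylation cycle, ESCO1 at -0.11 and the deacetylase HDAC8 at -0.03, were not called either.

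At the replication fork, where cohesion is established, 5 of 7 genes were called lower, beside 13.6% of all genes tested. These were CHTF18 (-2.18), DSCC1 (-1.96), TIMELESS (-1.93), WDHD1 (-1.39), which tethers polymerase alpha, and the helicase gene DDX11 (-1.37). CHTF8 (0.50) and TIPIN (0.25) were not called, and TIPIN shares 21.0% of its exon bases with a pseudogene on the same strand. The largest adjusted p among the 5 was 0.00271 (WDHD1, edgeR). DSCC1 and TIPIN are also among the S phase marker genes, and AURKB and CTCF of the same list among the G2/M marker genes. DDX11, like PTTG1 of the mitotic genes, has near-identical copies elsewhere in the genome, so its count is uncertain where reads were split between them.

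Among the genes that protect or remove cohesin in mitosis, 4 of 10 were called lower and 1 higher, beside 13.6% and 11.1% of all genes tested. Shugoshin genes SGO1 and SGO2, which shield centromeric cohesin, had log2 fold changes of -2.77 and -2.53. SGO1 went from 8.89 ± 1.27 to 1.30 ± 0.163 CPM and SGO2 from 5.68 ± 0.659 to 0.979 ± 0.206 CPM (SD, n = 3 each). Of the PP2A genes that act with shugoshin, PPP2R5A was called higher, at 20.7 ± 1.76 CPM with the control siRNA against 37.4 ± 1.65 CPM after knockdown (SD, n = 3 each). Its log2 difference was 0.86 (adjusted p = 3.53e-04 in edgeR). The other 5 PP2A genes were not called, although PPP2R5B (0.51) and PPP2R5D (0.38) had ranges above NC. MEA1 on the opposite strand shares 1194 of the 3314 exon bases of PPP2R5D. The kinase genes PLK1 (-3.10) and AURKB (-3.37), whose products strip cohesin from chromosome arms, fell most of the list.

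Separase and its inhibitor also fell, by unequal amounts. ESPL1, the protease gene, had 134, 129 and 121 CPM in NC and 66.4, 74.3 and 65.3 CPM in si-EIF5A2 libraries, and fell by 0.90 ± 0.08 on the log2 scale (standard error). PTTG1, which encodes securin, had 120, 124 and 128 CPM in NC and 23.0, 27.8 and 24.6 CPM in si-EIF5A2 libraries, and fell by 2.30 ± 0.09 (standard error). CTCF, the protein that stops loop extrusion by cohesin, stood at 31.5 ± 1.76 CPM with the control siRNA and 20.6 ± 3.83 CPM after knockdown (SD, n = 3 each). Its log2 difference of -0.61 (adjusted p = 0.0100 in edgeR) was just past the limit for a call. An antisense gene shares 1326 of the 10174 exon bases of CTCF, and another shares 679 of the 3828 of SGO1.

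The 2 related SMC complexes were set beside cohesin by their counts, and no test compares the lists. All 8 condensin genes, which compact mitotic chromosomes, were called lower, beside 13.6% of all genes tested. Their median log2 fold change was -2.03. With an unadjusted p under 0.05 and a 2-fold limit 7 of the 8 were lower, beside 9.24% of all genes tested. The 8 genes ran from NCAPH (-3.02) to NCAPH2 (-0.96), with the SMC subunits SMC2 at -1.71 and SMC4 at -2.09. SMC4 shares 18.5% of its exon bases with TRIM59 on the opposite strand, and NCAPG shares 33.1% with LCORL. NCAPD2 and NCAPD3 share smaller parts with genes on the opposite strand. Of the 9 genes of the SMC5/6 complex, a DNA repair complex, edgeR called 0 in either direction, as did DESeq2. With an unadjusted p under 0.05, 2 SMC5/6 genes were lower and 1 higher. Of all genes tested, 18.9% were lower and 18.0% higher at an adjusted p under 0.05, which is the stricter limit. SMC5 had a log2 fold change of 0.20 and SMC6 of 0.04, and the list ran from SLF1 (-0.72) to EID3 (1.63), neither of which was called. SMC1A and SMC3 of cohesin, at -0.09 and -0.08, were closer to SMC5 and SMC6 than to SMC2 and SMC4. Of the S phase marker genes 34 of 43 were called lower, with a median of -1.52, and of the G2/M marker genes 50 of 54, with a median of -2.41. Neither marker list contains a cohesin member, while SMC4 and NCAPD2 are in the G2/M list.

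Promoter sequence was examined because CDCA5 moved so much more than the ring genes. RefSeq windows from 250 bases before to 50 after the transcription start (GRCh38) were found for 8 of the 10 genes, 11 windows in all, with no entry for RAD21 and ESCO2. Each was searched on both strands for an E2F motif (TTTCCCGC, TTTCGCGC, TTTGCCGC or TTTGGCGC), a cell cycle homology region or CHR (TTTGAA or TTCGAA) and a CCAAT box (CCAAT). Of all 35116 windows, 3.31% hold the E2F letters, 16.4% the CHR letters and 34.6% CCAAT. None of the matches in these windows overlap each other. The 250 bases before the start are printed for CDCA5, for SMC3, which changed little, and for the second start of SMC1A, which also changed little and holds the same E2F letters as CDCA5. Capitals mark E2F and CHR matches, and all sequences read 5′ to 3′ on the strand of the gene.
CDCA5, chr11:65084041-65084290, minus strand: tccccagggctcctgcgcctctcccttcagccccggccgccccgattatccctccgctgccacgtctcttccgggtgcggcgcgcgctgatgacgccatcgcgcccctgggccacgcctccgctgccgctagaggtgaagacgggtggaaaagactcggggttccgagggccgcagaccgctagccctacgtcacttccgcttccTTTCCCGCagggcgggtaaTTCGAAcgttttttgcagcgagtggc
SMC3, chr10:110567445-110567694, plus strand: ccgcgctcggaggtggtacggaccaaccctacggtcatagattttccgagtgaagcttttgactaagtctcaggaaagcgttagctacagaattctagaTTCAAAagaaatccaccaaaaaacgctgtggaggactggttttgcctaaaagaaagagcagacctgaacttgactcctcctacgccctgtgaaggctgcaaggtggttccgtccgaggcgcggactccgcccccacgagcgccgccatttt
SMC1A second start, chrX:53422655-53422904, minus strand: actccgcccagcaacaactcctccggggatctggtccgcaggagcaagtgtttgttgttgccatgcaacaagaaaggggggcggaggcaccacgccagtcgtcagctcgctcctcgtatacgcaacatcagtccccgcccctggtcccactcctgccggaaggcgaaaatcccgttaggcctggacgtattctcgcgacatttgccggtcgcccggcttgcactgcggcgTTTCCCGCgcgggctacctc

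The CDCA5 window holds TTTCCCGC from base -45 to -38 and TTCGAA from base -26 to -21 before the start. Of the 11 windows searched, 1 held both an E2F and a CHR match, that of CDCA5. The share of all windows holding both was not counted, so this joint match has no background beside it. The other called genes, RAD21 and ESCO2, had no window, so matches could not be compared between called and uncalled genes. E2F letters were also found in the second SMC1A window from -20 to -13, in STAG1 from -183 to -176 and in the STAG2 window of its start 3 from -51 to -44. CHR letters were also found in SMC3 from -151 to -146 and in PDS5B from base 6 to 11 after the start. CCAAT boxes were found in 6 windows, those of STAG1, WAPL, PDS5A and PDS5B and 2 of STAG2. The 4 genes with E2F letters had log2 fold changes of -4.12 (CDCA5), -0.50 (STAG1), -0.19 (STAG2) and -0.09 (SMC1A). A match is a string of letters and does not show binding.

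**Figure D4:**
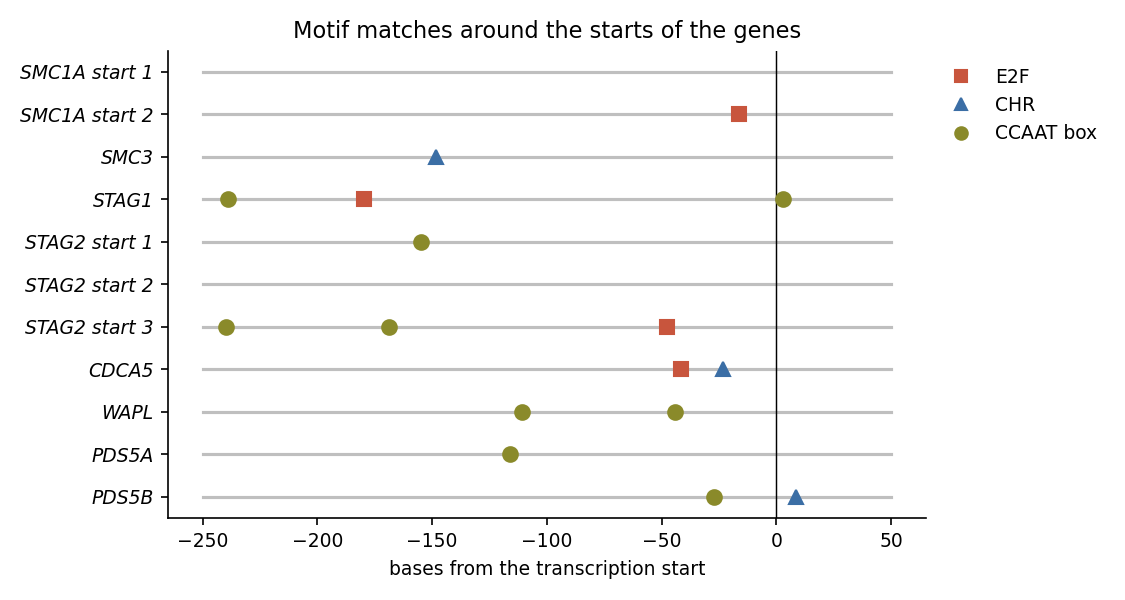
Gray lines are the 11 RefSeq windows, drawn in bases from the transcription start, and symbols mark E2F (square), CHR (triangle) and CCAAT box (circle) matches on either strand. CDCA5 has an E2F and a CHR match close to its start, and E2F matches also appear in SMC1A, STAG1 and STAG2.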

How the data were processed

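Messenger RNA of SKOV3 cells was measured in 6 libraries, and groups and replicate numbers come from the sample titles. The authors sequenced paired-end libraries, estimated levels by StringTie with ballgown, and deposited tables of estimated counts by Ensembl gene, rounded and not normalized. The aligner and genome build are not given in the sources used here, apart from Bowtie 0.12.2 and mouse builds in the submitters' processing notes, which cannot describe human identifiers. All 6 columns matched a library. Of 58825 identifiers, 58552 are in GENCODE release 29, which gave positions and exon lengths, and symbols come from the reference table.

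Plain counts had been planned for. The estimated counts were already whole numbers, which rounding left as they were, and entered edgeR 4.0.16 (R 4.3.3): filterByExpr, TMM, robust quasi-likelihood fits with the condition as the only term, Benjamini-Hochberg adjustment over 16208 genes, and calls where the adjusted p was under 0.05 with more than a 1.5-fold difference. A standard error is the size of the log2 difference over the root of F. Ratios used counts plus 1 per exon length and exact permutation tests (scipy 1.17.1). The floor for a gene at 0 counts was set at 3 counts (0.0405 to 0.0640 CPM), counting error only. Since a fragment was worth about 3.73 counts, this floor is less than 1 fragment, and the real limit is higher. The fits were also run on simulated counts, which lacked the step of about 3.73 counts, and the outcome is not reported here.

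The members, lists and tests were chosen with earlier results of these data known. Named were all 10 members, EIF5A2, every called gene of the list of other cohesin genes with NIPBL, MAU2, ESCO1, HDAC8 and CTCF, and the SMC subunits and extremes of the related complexes. PPP2R5B, PPP2R5D, CHTF8, TIPIN, UTP23, PCCB, MEA1, TRIM59, NCAPG, LCORL, NCAPD2, NCAPD3, the cell markers and the meiotic genes were named after their values were seen. Alternatives were DESeq2 1.42.0, RLE, upper-quartile and library-size scaling, other filters, a replicate block, counts divided by their step, thinning to the lowest total, other thresholds, another pseudocount and leaving out each library.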

Additional observations from a re-analysis of the deposited data

How the results depend on the processing

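The log2 fold changes of the 10 members were recomputed under 15 alternatives each, 150 values in all, of which 147 kept their direction and their side of the threshold. CDCA5, ESCO2 and RAD21 were called lower in each of the 15. The 3 exceptions were changes of sign in genes that were not called, SMC3 (-0.15 to 0.014 with each library left out) and PDS5B (-0.16 to 0.18). The SMC1A/SMC3 ratio difference, at about zero, also changed sign, to 0.00023 with a pseudocount of 10 and between -0.11 and 0.070 with each library left out. The threshold moved the counts most. By the adjusted p alone 5 members were lower (STAG1 and WAPL joined), 2911 genes were higher, 3 of the other cohesin genes were higher and 1 SMC5/6 gene was lower. With the unadjusted p and a 2-fold limit 872 genes were higher, 0 of the other cohesin genes were higher and 1 SMC5/6 gene was higher. Leaving out 1 library gave 1 to 2 other cohesin genes higher (2 without NC replicate 1) and 0 to 1 SMC5/6 genes higher (1 without si-EIF5A2 replicate 2). Of the other cohesin genes 12 were lower, against 11 without NC replicate 3, si-EIF5A2 replicate 1 or si-EIF5A2 replicate 3 and 10 with the unadjusted p and a 2-fold limit.

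Same-numbered libraries of the 2 groups did not deviate together (r = -0.024, 0.0052 and -0.0027 for numbers 1 to 3). None of the NC libraries correlated best with its own number. Such small values cannot show whether libraries were paired, and the labels do not say. With the replicate number as a block, 2050 genes were lower and 1681 higher, and 3 members were lower. Depth limits ESCO2 most, whose si-EIF5A2 values rest on about 6 to 17 fragments per library.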

Other observations

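The meiotic counterparts of the ring genes were near the floor of the table. SMC1B had 0, 8 and 4 counts in NC replicates 1 to 3 and 0, 4 and 0 in si-EIF5A2 replicates 1 to 3. RAD21L1 had 11, 1 and 10 counts in NC and 0 in all 3 si-EIF5A2 libraries, and part of its exons is shared with SNPH on the same strand. STAG3 had 10, 13 and 9 counts in NC and 18, 4 and 19 in si-EIF5A2 libraries, and REC8 had 25, 37 and 0 against 27, 16 and 17. Since a fragment was worth about 3.73 counts, most of these values are a few fragments. SMC1B, RAD21L1 and STAG3 did not pass the filter on low counts, and REC8 was tested without a call (adjusted p = 0.788, edgeR).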
